A study of Sus scrofa with 12 samples.

Results

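A set of 9 gene names was taken as the organic ion and efflux transporters of the blood-brain barrier, and the 7 that the authors' deposited table names were followed here among the 25880 genes of the deposited count table. They are SLC22A6, SLC22A8, SLCO1C1, SLCO2B1, ABCG2, SLC7A5 and MFSD2A. The other 2 names, ABCB1 and ABCC4, have no row of that name and were dropped. The members were chosen by their role at the barrier with the measured difference between both groups already known, SLC22A6 being among the genes that were lower in the treated group, so the differences between groups given for them are a description. RNA came from tissue labelled striatum, a deep forebrain region, of newborn piglets. The sham group (n = 6) was kept under 4% isoflurane. Deep hypothermic circulatory arrest (DHCA, n = 6) meant 4% isoflurane, a median sternotomy, cardiopulmonary bypass with cooling to 18 °C, 30 min without circulation, a return to 37 °C by bypass, and 6 h of recovery. Surgery, bypass, cooling and arrest differ together between the groups, no recovery time is given for sham, and strain and age in days are not given in the labels.

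The blood-brain barrier is formed by capillary endothelial cells sealed by tight junctions, so that solutes cross it mainly through carriers in the cell membrane. Solute carriers of the SLC and SLCO families move nutrients, hormones and organic anions down or against gradients, while ABC pumps spend ATP to return drugs and metabolites to the blood. Several of these genes are also active outside the endothelium. SLC22A6 and SLC22A8 are known from kidney tubule, choroid plexus and meninges, SLCO1C1 also from astrocytes, and SLCO2B1 also from microglia.

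Libraries held 1377809 to 12933536 counts, and levels are given as CPM, counts divided by a library size that was scaled by TMM, a method that balances the libraries on most genes. Sham 1 and Sham 5 stood apart by depth (1377809 to 2515816 counts, against 5434652 to 12933536 in the other 10 libraries) and by the share of counts from the mitochondrial chromosome (4.01% to 7.30%, against 10.6% to 26.3%). Sham 4 went against its label. Its 10 markers of striatal spiny neurons, of which PPP1R1B is the most abundant, summed to 345 CPM against 2303 to 5535 CPM elsewhere, and its 6 markers of excitatory cortical neurons, led by SLC17A7, summed to 1138 CPM against 5.99 to 27.3 CPM. The member values, list medians, correlations and likeness values below were therefore also computed without them.

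SLC22A6 encodes an organic anion transporter (OAT1) that takes up anionic drugs and metabolites in exchange for dicarboxylates. The gene (ENSSSCG00000023571) lies on the plus strand of chromosome 2, 8809547 to 8817124 in Sscrofa11.1, the assembly used for all positions here. In sham its level was 6.24 CPM at the lowest, 10.7 at the median and 12.6 at the highest, and in DHCA 2.30, 3.59 and 5.36 CPM. Every DHCA library lay below every sham library. The group means were 9.82 ± 2.46 and 3.61 ± 1.11 CPM (SD, n = 6 each), and the edgeR fit gave a log2 fold change, DHCA minus sham, of -1.42 (SE 0.25), which is 2.68-fold lower in DHCA. The log2 fold change was -1.31 (SE 0.27) without Sham 1 and Sham 5 and -1.19 (SE 0.28) without Sham 1, Sham 4 and Sham 5, and the groups stayed apart in both cases, while SLC22A6 no longer passed the edgeR test in either. The values rest on 15 to 101 counts per library. The authors' deposited table gives -1.41 (SE 0.28) for SLC22A6.

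SLC22A8, the neighbouring gene for the related organic anion transporter OAT3, was close to the limit of detection. It lies on the same strand of chromosome 2, 8781965 to 8805394 (ENSSSCG00000029516), with 4152 bases between it and SLC22A6. The sham libraries held 1 to 4 counts each and 17 in all, and the DHCA libraries 0 to 5 counts and 12 in all. In CPM, sham libraries ran from 0.220 over a median of 0.407 to 1.33, and DHCA libraries from 0 over 0.215 to 0.560, so the groups overlapped. The 0 in DHCA 6 allows up to 0.618 CPM, taking 3 counts as the limit. SLC22A8 did not pass the filter on low counts. A fit without the filter gave a log2 fold change of -0.75 (SE 0.64) and the authors' deposited table gives -1.15 (SE 0.78) for SLC22A8, both resting on these few counts.

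**Figure D1:**
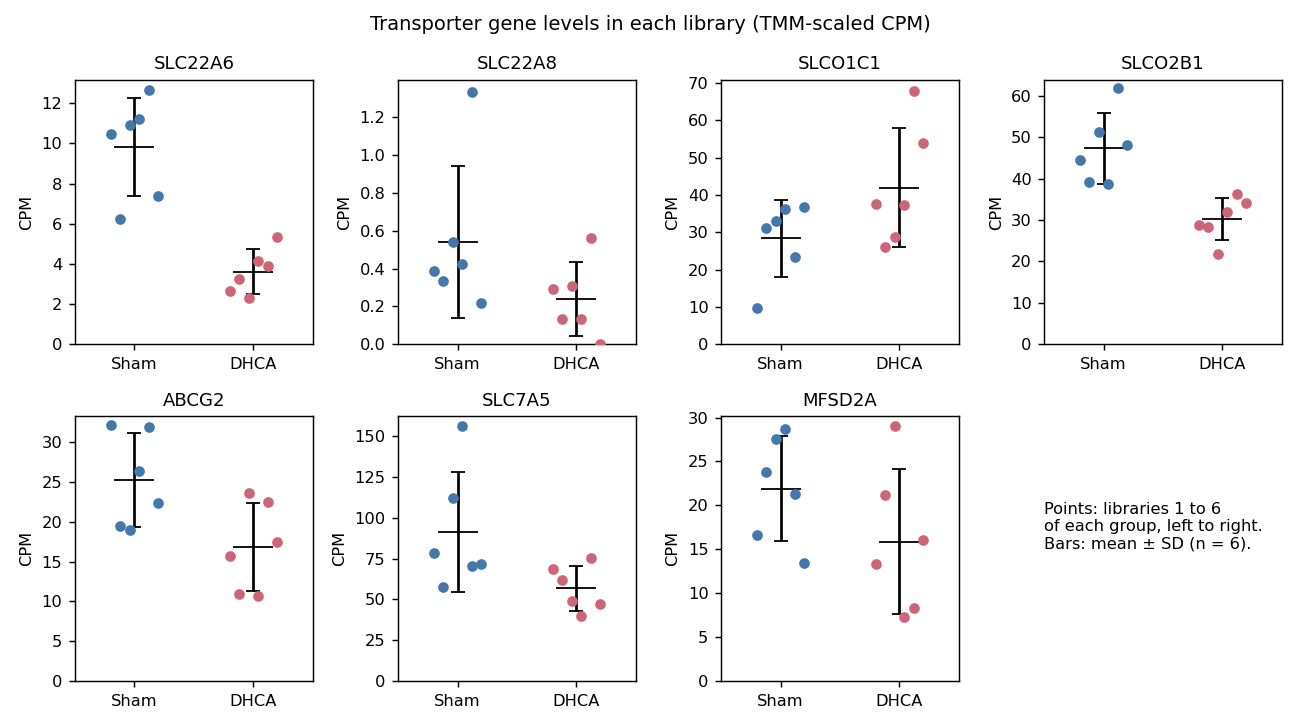
Level of each of the 7 transporter genes in each library, as TMM-scaled CPM on a linear axis that starts at 0, for sham (blue) and DHCA (red); points are libraries 1 to 6 of a group from left to right and bars give the mean ± SD (n = 6). All DHCA points lie below all sham points for SLC22A6 (highest 5.36 against lowest 6.24 CPM) and SLCO2B1 (36.4 against 38.8 CPM), and the groups overlap for the other 5 genes.

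SLCO2B1 encodes an organic anion transporting polypeptide that carries steroid sulphates, bile acids and many drugs. The gene (ENSSSCG00000014851) lies on the plus strand of chromosome 9, 9442669 to 9472619. Its sham libraries ran from 38.8 over a median of 46.4 to 61.9 CPM, and its DHCA libraries from 21.8 over 30.5 to 36.4 CPM. The groups did not overlap, although the nearest libraries differed by little, 36.4 CPM in DHCA 5 and 38.8 CPM in Sham 4. Means were 47.3 ± 8.64 and 30.3 ± 5.16 CPM (SD, n = 6 each), with a log2 fold change of -0.64 (SE 0.17), 1.56-fold lower in DHCA. Without Sham 1, Sham 4 and Sham 5 the log2 fold change was -0.61 (SE 0.17), again with no overlap.

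SLCO1C1, the carrier that brings thyroxine into the brain, was the only member of the 6 tested with a positive log2 fold change. The gene (ENSSSCG00000000585) lies on the minus strand of chromosome 5, 52234398 to 52315316. Sham libraries ran from 9.69 over a median of 32.0 to 36.8 CPM, and DHCA libraries from 26.1 over 37.5 to 67.9 CPM. The lowest value belonged to Sham 1, and the next sham library, Sham 5, was at 23.3 CPM, below all of DHCA, while the other 4 sham libraries lay within the DHCA range. The log2 fold change was 0.54 (SE 0.31) with all libraries and 0.29 (SE 0.25) without Sham 1 and Sham 5. Sham 1 and Sham 5 are the 2 shallow libraries, with 25 and 35 counts of SLCO1C1.

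ABCG2, known as breast cancer resistance protein, is an ATP-driven pump that exports drugs and urate. The gene (ENSSSCG00000009215) lies on the plus strand of chromosome 8, where its counted model runs from 130775507 to 131003408 while RefSeq places ABCG2 at 130853414 to 130945388. The model holds 11059 exon bases, 442 of which it shares with 2 other genes, and the reference table of gene names calls it ABCG2A, so reads from outside ABCG2 may be among its counts. Sham libraries ran from 19.0 over a median of 24.4 to 32.2 CPM, and DHCA libraries from 10.6 over 16.6 to 23.7 CPM. Of the DHCA libraries 4 lay below all of sham, and DHCA 3 and DHCA 5 lay within the sham range. The log2 fold change was -0.57 (SE 0.24). It was -0.38 (SE 0.24) without Sham 1 and Sham 5, which had the highest sham values (32.2 and 32.0 CPM), and -0.27 (SE 0.27) without Sham 4 (26.4 CPM) as well.

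SLC7A5 encodes the light chain LAT1 of a carrier for large neutral amino acids, thyroid hormones and levodopa, which works as a pair with the heavy chain encoded by SLC3A2. The gene (ENSSSCG00000032996) lies on the plus strand of chromosome 6, 1545941 to 1574285, and RefSeq lists SLC7A5 there as a long non-coding RNA, the only member not listed as protein coding. Sham libraries ran from 57.3 over a median of 75.3 to 156 CPM, and DHCA libraries from 39.8 over 55.2 to 75.3 CPM. The highest value was that of Sham 4, the library with cortical markers. The log2 fold change was -0.68 (SE 0.25) with all libraries and -0.46 (SE 0.21) without Sham 4, and the groups overlapped in both cases.

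The partner SLC3A2 had a log2 fold change of the opposite sign. Its mean level was 114 ± 23.5 CPM (SD, n = 6 in this and the next value) for sham and 147 ± 21.2 CPM for DHCA, a log2 fold change of 0.37 (SE 0.17, edgeR adjusted p = 0.63). As levels per kilobase of exon, the ratio of SLC7A5 to SLC3A2 was 0.196 to 0.479 in sham with a median of 0.259, and 0.0861 to 0.198 in DHCA with a median of 0.139. Both ranges met at their edge, and without Sham 4 the highest sham ratio was 0.340.

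MFSD2A carries lysophosphatidylcholine with docosahexaenoic acid into the brain and restrains vesicle traffic across the endothelium. The gene (ENSSSCG00000003669) lies on the plus strand of chromosome 6, 95738805 to 95756002. Sham libraries ran from 13.5 over a median of 22.6 to 28.7 CPM, and DHCA libraries from 7.26 over 14.7 to 29.0 CPM. DHCA held both the highest and the lowest of the 12 values, DHCA 3 at 29.0 CPM and DHCA 4 at 7.26 CPM, and its coefficient of variation was 52.0% against 27.4% in sham. Means were 21.9 ± 6.00 CPM in sham and 15.9 ± 8.25 CPM in DHCA (SD, n = 6 each), and the groups overlapped. The log2 fold change was -0.47 (SE 0.32), and it moved from -0.32 without DHCA 4 to -0.75 without DHCA 3. DHCA 3 was also the lowest library for SLC22A6 and SLCO2B1 and the highest DHCA library for ABCG2. Without it the log2 fold change was -1.34 for SLC22A6, which edgeR then did not call, -0.57 for SLCO2B1 and -0.70 for ABCG2.

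**Figure D2:**
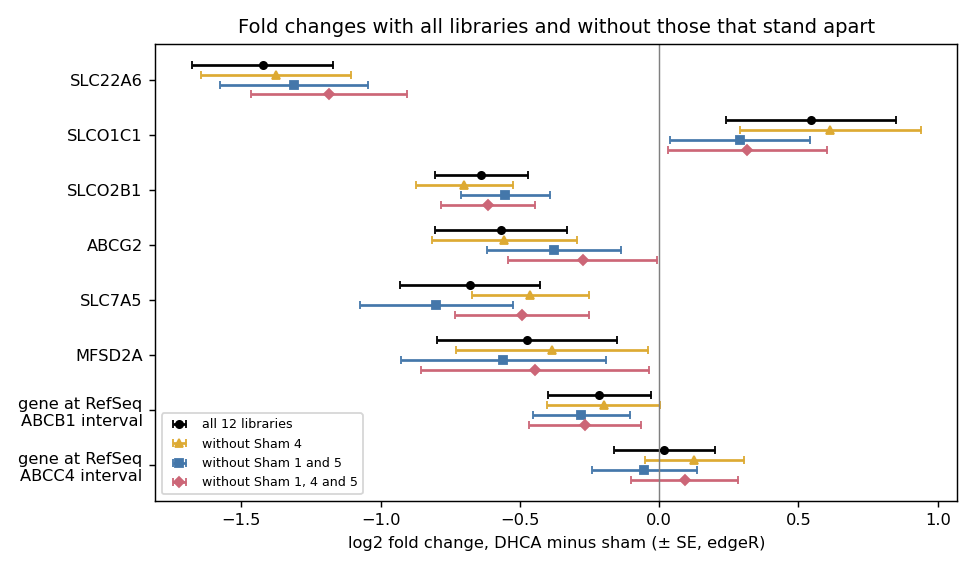
Log2 fold change, DHCA minus sham, with its SE from edgeR for the 6 tested transporters and for the genes at the RefSeq intervals of ABCB1 and ABCC4, with all 12 libraries (black) and without the libraries that stand apart (colours). SLC22A6 stays between -1.42 and -1.19, SLCO1C1 is above 0 in all 4 fits, and the gene at the ABCC4 interval lies on both sides of 0.

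In all, 6 of the 7 members passed the filter on low counts, and 5 of these 6 had a negative log2 fold change, where 50.5% of the 14004 tested genes did. The edgeR quasi-likelihood test over all genes, at an adjusted p of 0.05, called SLC22A6 alone among the members, where it called 26 genes (0.186%) in all and 7 (0.05%) as lower. The complete separation of DHCA below sham, seen in SLC22A6 and SLCO2B1, occurred in 44 genes (0.314%). Since the members were chosen with this comparison known, nothing is read from these shares. SLC22A6 was called in 4 of the 12 fits that left out 1 library, those without Sham 1, Sham 2, Sham 6 or DHCA 6, and not in those without Sham 3, Sham 4, Sham 5 or DHCA 1 to DHCA 5, with log2 fold changes between -1.56 and -1.34 over the 12. DESeq2 called SLC22A6 and SLCO2B1 with 1.1% of the genes it adjusted, and limma-voom with sample quality weights called the same 2 with 1.48% of the genes tested.

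ABCB1, the pump P-glycoprotein, and ABCC4, the pump MRP4, were looked up by position after the files were seen, since neither name stands in the authors' deposited table. The unnamed gene ENSSSCG00000015390 on the plus strand of chromosome 9, 93050111 to 93146460, covers nearly the same interval as ABCB1 in RefSeq (93049955 to 93146469). It ran from 15.9 over a median of 24.6 to 27.2 CPM in sham and from 14.8 over 20.3 to 27.7 CPM in DHCA, with a log2 fold change of -0.22 (SE 0.19). The unnamed gene ENSSSCG00000026996 on the minus strand of chromosome 11, 64086662 to 64309389, covers the interval of ABCC4 (64089149 to 64309831). It ran from 16.3 over 17.5 to 26.3 CPM in sham and from 13.2 over 20.5 to 23.1 CPM in DHCA, with a log2 fold change of 0.019 (SE 0.18). In both genes the groups overlapped over most of their range, and the names rest on position alone.

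Levels between members were compared in sham per kilobase of counted exon (RPKM on the TMM-scaled library size). The sham counts also entered the comparison that was known when the members were chosen, so the place of SLC22A6 in this order is a description. SLCO2B1 (23.4 ± 4.28 RPKM; SD, n = 6 here and in the next values) and SLC7A5 (21.6 ± 8.73) were highest. SLCO1C1 (8.48 ± 3.10), SLC22A6 (mean 5.98, range 3.80 to 7.71) and MFSD2A (4.30 ± 1.18) followed. ABCG2 was at 2.28 ± 0.535 RPKM and SLC22A8 at 0.0801 ± 0.0597 RPKM. SLC22A8, with at most 4 counts in a sham library, was the least abundant.

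Neighbours in this order were compared by an exact 2-sided sign-flip permutation test over the 6 sham libraries, which cannot give p below 0.03125. SLC7A5 exceeded SLCO1C1 2.62-fold, MFSD2A exceeded ABCG2 1.86-fold and ABCG2 exceeded SLC22A8, each in 6 of 6 libraries (exact permutation p = 0.03125, adjusted over the 6 neighbouring pairs 0.0625). SLCO2B1 was above SLC7A5 in 4 of 6 libraries (exact permutation p = 0.531). SLC22A6 was below SLCO1C1 in 4 of 6 libraries and above MFSD2A in 5 of 6. These 2 pairs were tested and entered the adjustment, and they are given here only as a description. None of the 6 pairs passed an adjusted p of 0.05. Without Sham 1 and Sham 5 the first 2 genes changed places. In DHCA the order by mean was the same except that MFSD2A (3.12 ± 1.62 RPKM) stood above SLC22A6 (2.20 ± 0.679 RPKM). Counted exon length ran from 1641 bases for SLC22A6 to 11059 for ABCG2, so the order depends on how well each counted model matches its gene. In CPM the sham mean of MFSD2A (21.9) lay below that of ABCG2 (25.2). Their order per kilobase thus rests on the counted lengths, 5091 bases for MFSD2A and 11059 for ABCG2, whose model extends beyond ABCG2 in RefSeq. The permutation test takes the lengths as given.

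**Figure D3:**
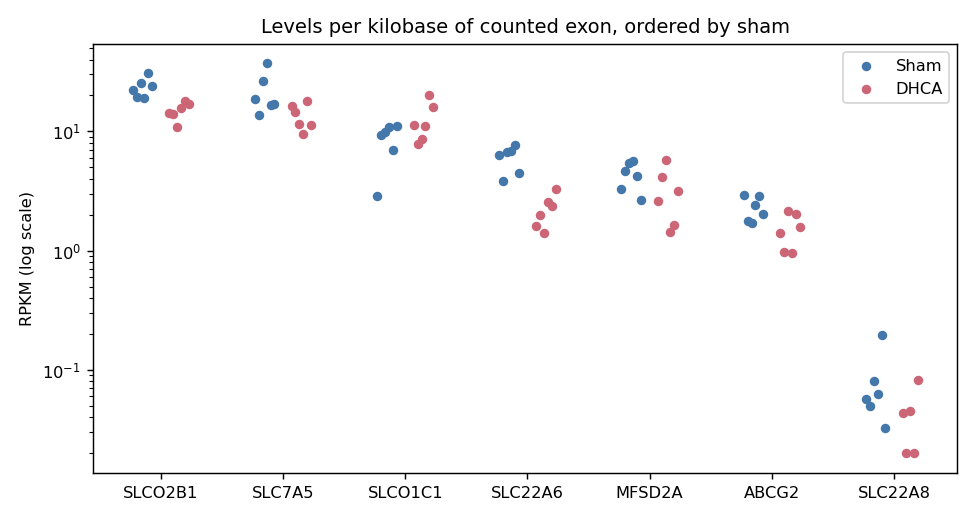
Level per kilobase of counted exon (RPKM, log axis) of the 7 transporters in each sham (blue) and DHCA (red) library, ordered by the sham level; DHCA 6 has no point for SLC22A8, where its count was 0. The genes from SLCO2B1 to ABCG2 span 23.4 to 2.28 RPKM in the sham mean, and SLC22A8 lies far below at 0.0801.

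Whether the transporters vary together from library to library was examined after the group means were removed, over all 12 libraries and 15 pairs of the 6 tested members. SLC22A6 and SLCO2B1 had the highest correlation (Pearson r = 0.68, permutation p = 0.0235; Spearman rho = 0.65, permutation p = 0.0361), and it missed the threshold after adjustment (0.353 and 0.542). Without Sham 2 and DHCA 3, the libraries farthest from the median of SLC22A6, r was 0.43. SLCO2B1 and MFSD2A had the lowest (r = -0.56, permutation p = 0.0704; rho = -0.53, permutation p = 0.0952; adjusted 0.528 and 0.714; r = -0.48 without the 2 farthest libraries). Over the 15 pairs the median r was 0.11 and 10 were positive, and 0 passed an adjusted p of 0.05. SLCO1C1 and SLCO2B1, the pair from the same family, had r = 0.28 (permutation p = 0.4; rho = 0.31, permutation p = 0.344; adjusted 0.894 and 0.988; r = 0.32 without Sham 1 and DHCA 2). Leaving out Sham 4 gave r = 0.82 for SLC22A6 and SLCO2B1 (adjusted permutation p = 0.0598), and leaving out DHCA 3 gave 0.56. For SLCO1C1 and SLCO2B1 r was 0.70 without Sham 1 and Sham 5 and 0.17 without DHCA 3. These 2 pairs thus depended on which libraries were kept.

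The same correlation with the mean level of marker lists gave 36 relations, of which 0 passed an adjusted p of 0.05. The highest was that of SLCO2B1 with 11 astrocyte markers, of which SLC1A2 is the most abundant (r = 0.73, permutation p = 0.0146; rho = 0.56, permutation p = 0.0774; adjusted 0.262 and 0.412; r = 0.46 without DHCA 3 and Sham 5). With microglia markers SLCO2B1 had r = 0.53 (permutation p = 0.0989, adjusted 0.324), and 0.59 without DHCA 3 and Sham 5. Its rho with them was 0.59 (permutation p = 0.0573, adjusted 0.412). SLCO1C1 had r = 0.56 with microglia markers (permutation p = 0.0833, adjusted 0.324), and 0.61 without Sham 1 and DHCA 2. Its rho with them was 0.66 (permutation p = 0.0294, adjusted 0.412). SLC7A5 had r = 0.67 with 8 pericyte markers (permutation p = 0.0435; rho = 0.43, permutation p = 0.218; adjusted 0.324 and 0.591; r = 0.40 without Sham 4 and DHCA 5). SLC22A6 had the same r of 0.65 with astrocyte markers (permutation p = 0.0307; rho = 0.59, permutation p = 0.0591; adjusted 0.324 and 0.412; r = 0.21 without Sham 2 and DHCA 3) and with 9 fibroblast markers, led by COL1A2 (permutation p = 0.0126; rho = 0.59, permutation p = 0.0461; adjusted 0.262 and 0.412; r = 0.34 without Sham 2 and DHCA 3), and r = -0.0039 with 14 endothelial markers, led by VWF (permutation p = 0.992; rho = -0.16, permutation p = 0.626; adjusted 0.992 and 0.87; r = -0.44 without the same 2 libraries). SLCO1C1 had r = -0.52 with the endothelial markers (permutation p = 0.151; rho = -0.11, permutation p = 0.75; adjusted 0.454 and 0.87), which became 0.056 without Sham 1 and DHCA 2 and 0.21 without Sham 1 and Sham 5. With the endothelial list the highest of the 6 values was that of ABCG2 (r = 0.36, permutation p = 0.181; rho = 0.36, permutation p = 0.182; adjusted 0.501 and 0.546; r = 0.38 without DHCA 4 and DHCA 2).

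**Figure D4:**
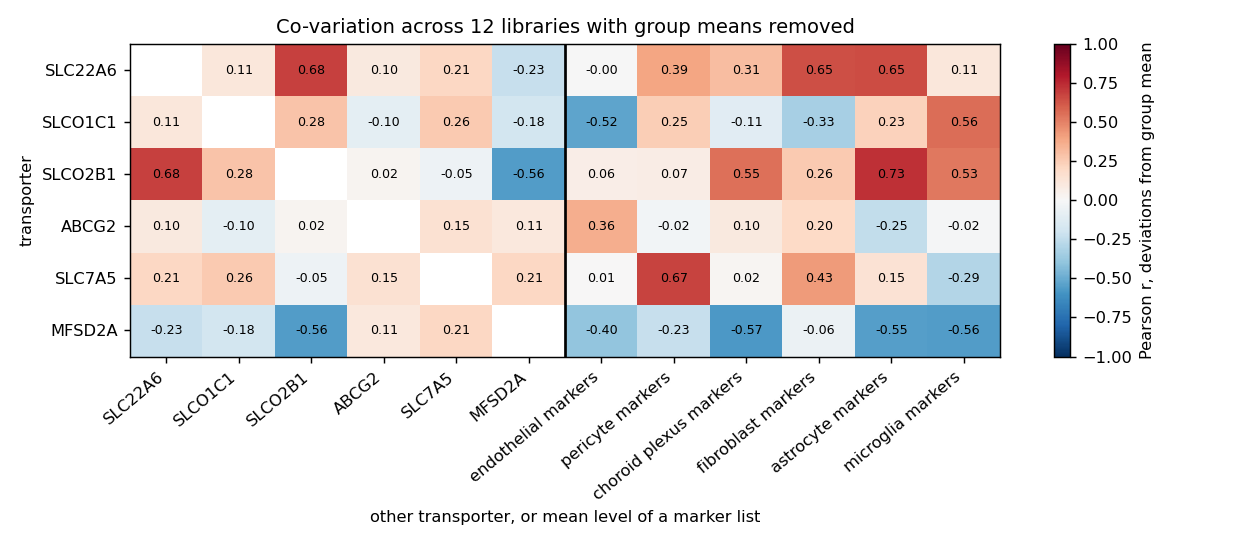
Pearson r across the 12 libraries, after removal of the group means, between each tested transporter (rows) and the other transporters or the mean log2 CPM of 6 marker lists (columns); red is positive and blue negative. SLCO2B1 has its highest values with astrocyte markers (0.73) and SLC22A6 (0.68), and MFSD2A is negative with all 6 marker lists.

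Among 12736 named genes with a mean of at least 1 CPM, those most like each transporter were listed by the same group-centred Pearson r over 12 libraries, as a description. SLC22A6 was most like ADAMTS10, a secreted metalloproteinase gene (0.91), CPSF4L (0.87) and NID1, a basement membrane gene (0.87). SLCO1C1 was most like MED12L (0.97), THRB, a thyroid hormone receptor gene (0.97), and SCG2, a secretogranin gene (0.97). SLCO2B1 was most like CRIM1 (0.92), the replication helicase gene MCM7 (0.91) and DGCR2 (0.91). ABCG2 had its highest values with the small nucleolar RNA gene SNORA81 (0.83), FANCC (0.83) and USP40 (0.82). SLC7A5 was most like the neuropeptide gene CCK (0.90), GALNT14 (0.90) and TNFAIP8L3 (0.84), and MFSD2A most like DUSP6, a phosphatase gene of MAP kinase signalling (0.95), ANKRD34C (0.86) and ANO10 (0.85). Without Sham 1 and Sham 5 these 18 values lay between 0.83 and 0.96, and without DHCA 3 between 0.77 and 0.99. Without Sham 4, which had the highest SLC7A5, the values for SLC7A5 were 0.84 (CCK), 0.81 (GALNT14) and 0.73 (TNFAIP8L3). The highest r of so many genes are high by the way they were picked.

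Markers of the cells that could hold these RNAs moved as follows. In bulk tissue, fewer cells of a type and less RNA per cell cannot be told apart. The 16 endothelial markers in the count table summed to 347 to 635 CPM in sham and 391 to 440 CPM in DHCA, with EGFL7 at 0 in all libraries, and Sham 1 and Sham 5 were the 2 highest. Of the 14 tested, 9 had a negative log2 fold change and 0 passed the test (median -0.42, and -0.13 without Sham 1 and Sham 5). At an unadjusted p under 0.05, 5 of them were lower and 1, CDH5, was higher (all genes: 4.47% lower and 3.43% higher). The 11 fibroblast markers summed to 203 to 507 CPM in sham and 203 to 317 CPM in DHCA, with 8 of 9 tested negative and 0 called. Of these 9, 3 were lower at an unadjusted p under 0.05. Their median was -0.40, and -0.21 without Sham 1 and Sham 5. The 9 choroid plexus markers, led by FOLR1, summed to 20.3 to 49.9 CPM in sham and 23.4 to 37.7 CPM in DHCA, and its 3 tested genes had log2 fold changes of -0.15 (SLC4A5), -0.11 (KCNJ13) and -0.047 (FOLR1), with 0 called. TTR, the transthyretin gene that defines this epithelium, did not pass the filter on low counts (2.82 CPM on average in sham and 0.489 CPM in DHCA). The 12 microglia markers, led by CSF1R, summed to 182 to 368 CPM in sham and 175 to 305 CPM in DHCA. Of the 11 tested, 8 were negative and 0 called, and 3 were lower at an unadjusted p under 0.05 (CX3CR1 -1.26, TREM2 -0.62 and AIF1 -0.43, edgeR adjusted p from 0.365 to 0.588). The median of the 11 was -0.19. It was 0.0096 without Sham 1 and Sham 5, with 5 negative, and -0.15 without Sham 4 as well, with 8 negative. Pericyte markers (10, led by RGS5) gave 283 to 438 and 360 to 415 CPM, and astrocyte markers (11) 6043 to 6982 and 5492 to 8009 CPM. Of 4 red cell markers, led by HBB, the sum was 33.0 to 241 CPM in sham and 26.3 to 65.9 CPM in DHCA, and both tested genes were lower at an unadjusted p under 0.05 (HBB -1.64 and ALAS2 -1.13; edgeR adjusted p = 0.14 and 0.618). The ranges of both groups overlapped for every one of these lists, and the part of any of them in the transporter values was not tested.

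The rest of the transport system was described by 11 further lists with 170 genes, written with earlier results of these data known. Of these, 129 were tested and 3 were called by edgeR, 1 higher and 2 lower (2.33%, against 0.186% of all genes). Because the lists were written with those results known, nothing is read from this share. SLC52A3 and SLC19A3, which carry riboflavin and thiamine, fell by 2.52 (SE 0.29, edgeR adjusted p = 0.00354) and by 2.20 (SE 0.38, edgeR adjusted p = 0.0341) on the log2 scale. They were the called genes among 23 tested solute carriers of the barrier, of which 15 were negative with a median of -0.039 (all tested genes: -0.0030). At an unadjusted p under 0.05, 6 of the 23 were lower and 4 were higher (all genes: 4.47% lower and 3.43% higher). Nothing is read from these counts either. SLC19A2 was among the higher genes (0.65, SE 0.23, edgeR adjusted p = 0.42, named after its value was seen). SLC52A3 was called in all 12 fits without 1 library, SLC19A3 in 3 (edgeR adjusted p up to 0.105, without Sham 3).

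Other families of organic ion carriers and pumps had 0 called genes. Of the other SLC22 genes 5 were tested, with a median log2 fold change of -0.043 and 0 at an unadjusted p under 0.05, and the smallest p were those of SLC22A15 (-0.28, SE 0.22) and SLC22A23 (-0.24, SE 0.30). Of 5 tested SLCO genes, 1 in each direction had an unadjusted p under 0.05 (all genes: 3.43% higher and 4.47% lower), the prostaglandin carrier SLCO2A1 (sham 15.0 ± 4.54 CPM, DHCA 8.84 ± 2.18 CPM; log2 fold change -0.77, SE 0.23, edgeR adjusted p = 0.296) and SLCO4A1 (1.36, SE 0.46, edgeR adjusted p = 0.412). Among 14 ABC exporters, 10 were negative with a median of -0.23, and 3 were lower at an unadjusted p under 0.05. The smallest p were those of the multidrug resistance protein genes ABCC5 (232 ± 46.7 and 141 ± 20.9 CPM; -0.71, SE 0.17, edgeR adjusted p = 0.154) and ABCC1 (28.2 ± 6.37 and 18.7 ± 3.20 CPM; -0.57, SE 0.18, edgeR adjusted p = 0.354). That median was -0.054 without Sham 1 and Sham 5. Of 5 tested dicarboxylate carriers and PDZ scaffolds that serve organic anion exchange, all 5 were negative with all libraries (median -0.20). Without Sham 1 and Sham 5, 3 were negative (median -0.14), and without Sham 4 as well, 3 (median -0.069). With all libraries 1 had an unadjusted p under 0.05, the scaffold gene SLC9A3R1 (-1.01, SE 0.43, edgeR adjusted p = 0.581). Next came the citrate carrier SLC13A5 (-0.20, SE 0.15). SLC13A3, which supplies the dicarboxylate that SLC22A6 exchanges in kidney, had -0.023 (SE 0.26) and was named after its value was seen.

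Relatives of SLC7A5 and MFSD2A had 0 called genes too. Of 11 tested SLC3 and SLC7 genes, 2 had an unadjusted p under 0.05, both higher (all genes: 3.43% higher), and the list median was 0.086. SLC7A2, a carrier of arginine and other cationic amino acids, averaged 39.5 ± 22.7 CPM (sham) and 115 ± 21.0 CPM (DHCA; log2 fold change 1.53, SE 0.31, edgeR adjusted p = 0.0704), and the other gene was SLC3A2. Of 14 genes of lysophospholipid and fatty acid uptake, 0 reached an unadjusted p under 0.05 (median 0.043), with LPCAT1 (-0.63, SE 0.31) and ACSL5 (0.41, SE 0.21) having the smallest p. Without Sham 1 and Sham 5 the median turned to 0.22 for the SLC22 genes, to -0.035 for the SLC3 and SLC7 genes, to 0.052 for the solute carriers of the barrier and to 0.043 for the transcription factors described next. With Sham 4 left out as well, these medians were 0.20, 0.089, 0.043 and -0.041.

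Regulators and barrier structure were covered by 4 lists. Of 15 tested transcription factors known to regulate drug transporters, 0 were called and 1 was higher at an unadjusted p under 0.05 (all genes: 3.43%). That gene was HIF1A (81.8 ± 40.3 and 146 ± 34.3 CPM, log2 fold change 0.83, SE 0.32, edgeR adjusted p = 0.488), followed by EPAS1 (-0.23, SE 0.14). The xenobiotic receptor genes NR1I2 (1.06 ± 0.278 and 1.55 ± 0.66 CPM) and NR1I3 did not pass the filter on low counts. In the Wnt/beta-catenin pathway that maintains the barrier, 17 genes were tested and the receptor gene FZD4 rose by 1.13 (SE 0.19, edgeR adjusted p = 0.0279), a call kept in 5 of the 12 fits without 1 library. At an unadjusted p under 0.05, 4 genes of that list were lower and 1 was higher (all genes: 4.47% lower and 3.43% higher). The pathway factor LEF1 had -1.15 (SE 0.24, edgeR adjusted p = 0.0785, named after its value was seen). The median of the list was -0.20, with 12 genes negative. Without Sham 1 and Sham 5 this median was -0.087, and without Sham 4 as well -0.046, with 9 negative. Of 11 tested genes in the tight junction list 0 were called, and 3 had an unadjusted p under 0.05 (1 higher and 2 lower, all genes: 3.43% and 4.47%). Among them were OCLN, the occludin gene (-0.74, SE 0.23, edgeR adjusted p = 0.354), and CDH5 (0.67, SE 0.21, edgeR adjusted p = 0.354). CDH5, the endothelial cadherin gene, belongs to adherens junctions and is also in the endothelial marker list. Of 11 tested receptor and vesicle genes of transcytosis, 0 were called and 0 reached an unadjusted p under 0.05, with PLVAP, the gene of fenestrated endothelium, at -0.58 (SE 0.29).

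**Figure D5:**
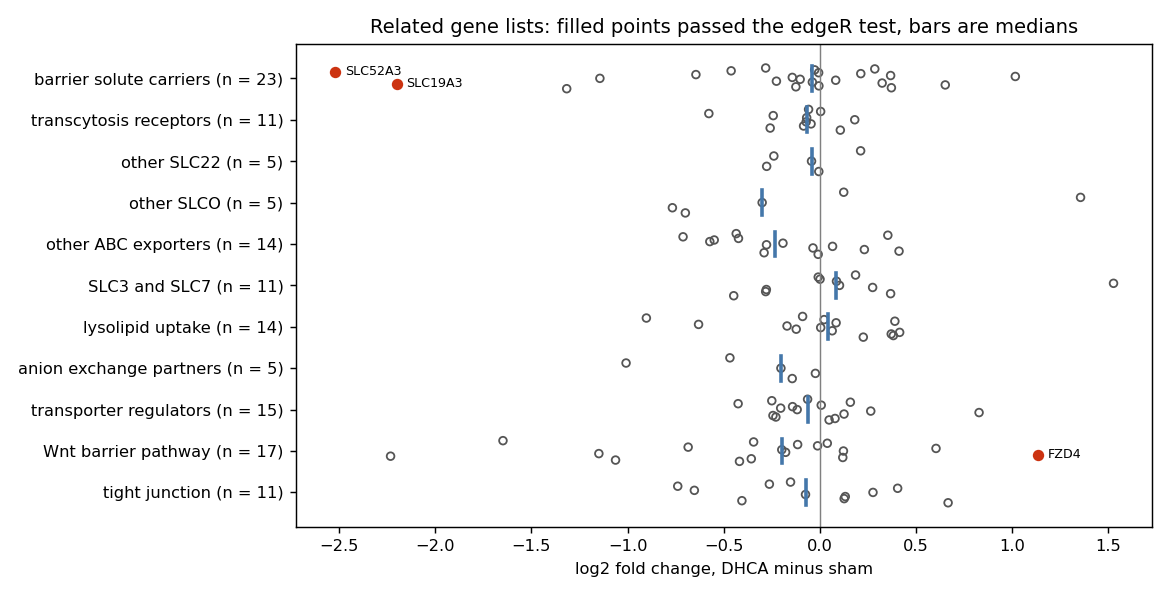
Log2 fold change, DHCA minus sham, of each tested gene in 11 lists of related transport and barrier genes; filled points passed the edgeR test over all genes, open points did not, and bars give each list's median. The 3 filled points are SLC52A3 (-2.52), SLC19A3 (-2.20) and FZD4 (1.13).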

How the data were processed

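The members and gene lists were chosen with earlier results of these data known. The authors deposited raw counts per Ensembl gene, made with featureCounts 1.5.1 over exons of Sscrofa11.1 with no strand option, per the file headers. No aligner is named in those sources. Of 18 library columns, 12 match the samples by number and 6 were not used. The authors' deposited comparison table, for which the submitters' processing notes name DESeq2, holds a mean signal, log2 fold changes, a statistic (score) and p-values per gene; its fold changes were read as DHCA minus sham, since across 14004 genes they correlated at 0.967 with those computed here, and its score and p-values were not used. Gene names came from it and then from a reference table (17449 of 25880 IDs); of 143 symbols with several IDs the one with most counts was used.

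In R 4.3.3, counts were filtered with edgeR 4.0.16 filterByExpr, scaled by TMM and tested with the quasi-likelihood F test, group being the only term (Benjamini-Hochberg over 14004 genes, threshold 0.05; SE from F). The labels do not say that each sample is a separate piglet, so p-values measure the spread between these samples, which may be technical; no 2 of them looked like 1 library deposited again (lowest chi-square divided by its degrees of freedom 8.50). One CPM corresponds to at most 13.7 counts. Correlations used log2 CPM (prior count 2) and 100000 permutations within groups. SLC22A8 was left out of them, so 15 member pairs were tested. Fits and permutation tests were tested on simulated data. Alternatives were DESeq2 1.42.0, limma 3.58.1 voom, other scalings and filters, a block by title number, and libraries left out. Named genes in the lists were up to 4 called genes or else the 2 with the smallest p, and per member the 3 most like it. Of the transcytosis list only PLVAP is named. In marker lists the rule was to name the most abundant genes. Other marker genes given here, and SLC13A3, LEF1, SLC19A2, NR1I2 and NR1I3, were named outside these rules. No sequences were at hand. One marker list, in which DHCA 3 stood apart, is not reported here. Correlations and likeness without Sham 4, without Sham 1, Sham 4 and Sham 5, and without DHCA 3 were added after seeing the data.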

Additional observations from a re-analysis of the deposited data

Results flagged for a closer look

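In 2 of the 18 groups of 6 libraries checked (9 genes in both groups), 1 library lay far from the other 5; chance does this in about 1 of 20 groups, or 0.9 of 18. SLC22A8 was at 1.33 CPM in Sham 5, against 0.539 CPM in the next highest sham library, and the value rests on 2 counts in the shallowest library. The gene at the ABCC4 interval was at 26.3 CPM in Sham 4, against 19.8 CPM in the next, and Sham 4 is the library with cortical neuron markers.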

How the results depend on the processing

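All 6 tested members kept the sign of their fold change in each of 23 alternatives; the ranges were -1.56 to -1.19 for SLC22A6, -0.71 to -0.55 for SLCO2B1, -0.70 to -0.27 for ABCG2, -0.80 to -0.46 for SLC7A5, -0.75 to -0.32 for MFSD2A and 0.24 to 0.65 for SLCO1C1. The counts of called genes (all genes 26, members 1, related lists 3) became 179, 2 and 9 with DESeq2, 207, 2 and 10 with limma-voom and quality weights, 12, 0 and 1 without Sham 1 and Sham 5, 1, 0 and 0 without Sham 1, Sham 4 and Sham 5, and 6, 0 and 1 at a threshold of 0.01. Leaving out 1 library gave 9 to 51, 0 to 1 and 1 to 5. With a replicate block by title number they were 8, 0 and 1; same-numbered libraries deviated together (r above 0.1) in 2 of 6 pairs (r from -0.39 to 0.34), and none of the 6 sham libraries correlated best with its own number, so the numbers were not taken as pairs. The cause of these shifts was not tested. The gene at the ABCC4 interval, at 0.019, turned to -0.021 with upper-quartile factors, -0.0022 with limma-voom and -0.054 without Sham 1 and Sham 5, and ran from -0.041 to 0.13 without 1 library. The level order and both families of correlations had 0 adjusted p under 0.05 in every alternative run; with 5 or fewer sham libraries the level test cannot reach 0.05. Depth limits SLC22A8, with at most 5 counts per library.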
